A study of Mus musculus with 24 samples.

Results

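The enzymes and carriers of bile acid metabolism described here are the products of 8 genes: Cyp7a1, Cyp8b1, Cyp27a1, Amacr, Baat, Abcb11, Slc10a1 and Nr0b2. They were found by symbol in the probe annotation of the array, which names 13840 genes by a single symbol. Of their 9 probes the brightest over the liver arrays was kept for each gene, in both tissues. Only Cyp7a1 had a choice. They were followed on 24 one-colour arrays (Applied Biosystems Mouse Genome Survey, total RNA), 12 of liver and 12 of brain, in male mice 12 weeks old. The 4 groups, with 3 mice each in each tissue, were Acads-/- mice on the high-fat (HF) diet D12331, Acads-/- mice on the low-fat (LF) diet D12329, Acads+/+ mice on HF diet and Acads+/+ mice on LF diet, each for 2 days after chow. Acads encodes the mitochondrial dehydrogenase that starts the oxidation of short-chain fatty acids. The Acads-/- mice were BALB/cByJ, an inbred strain whose Acads gene carries a spontaneous deletion in every tissue, and the Acads+/+ mice were the substrain BALB/cByKZ, so genotype and substrain cannot be told apart. The questions put to these genes were whether they differ between genotypes on each diet and between diets in each genotype.

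Bile acids are made from cholesterol in the hepatocyte. In the classic route Cyp7a1 adds the first hydroxyl group and sets the rate, Cyp8b1 directs the product towards cholic acid, and Cyp27a1, in the mitochondrion, oxidizes the side chain and also opens an alternative route. In the peroxisome Amacr turns the side-chain intermediates into the form that can be shortened, and Baat then joins the bile acid to an amino acid, mainly taurine in the mouse. Abcb11 pumps the finished bile salts into the canaliculus, and Slc10a1 takes bile salts back up from the portal blood. Nr0b2, a nuclear receptor without a DNA-binding domain, is switched on by the bile acid receptor Nr1h4 and holds back Cyp7a1 and Cyp8b1.

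The stretches just upstream of 4 of these genes are shown. In the liver comparisons described below, these genes had an unadjusted p under 0.05 (limma) and at least 1.6-fold between diets in 1 genotype. None passed after adjustment. No relation between these letters and the array values was tested. RefSeq start sites on GRCm38.p6 were at hand for 5 of the 8 genes (Cyp8b1, Cyp27a1, Abcb11, Nr0b2 and, with a pair of starts, Slc10a1). Each line gives the 250 bases before the start, 5′ to 3′ along the gene, with motif matches in capitals.
Cyp8b1, chr9:121916306-121916555, minus strand: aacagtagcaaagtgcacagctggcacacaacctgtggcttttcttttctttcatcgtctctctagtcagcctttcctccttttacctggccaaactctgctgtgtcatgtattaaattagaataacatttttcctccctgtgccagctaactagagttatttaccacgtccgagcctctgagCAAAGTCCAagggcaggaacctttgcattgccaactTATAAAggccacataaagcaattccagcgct
Cyp27a1, chr1:74713285-74713534, plus strand: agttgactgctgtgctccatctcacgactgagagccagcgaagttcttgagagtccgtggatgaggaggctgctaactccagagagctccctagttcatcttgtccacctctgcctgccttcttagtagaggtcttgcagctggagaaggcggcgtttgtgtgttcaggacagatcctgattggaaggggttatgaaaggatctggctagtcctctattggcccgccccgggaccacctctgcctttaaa
Abcb11, chr2:69342617-69342866, minus strand: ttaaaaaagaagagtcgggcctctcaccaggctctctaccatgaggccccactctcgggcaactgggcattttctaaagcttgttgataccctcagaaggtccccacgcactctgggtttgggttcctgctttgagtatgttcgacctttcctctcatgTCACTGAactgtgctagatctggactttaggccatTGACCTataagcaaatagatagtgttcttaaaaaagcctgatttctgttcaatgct
Nr0b2, chr4:133553126-133553375, plus strand: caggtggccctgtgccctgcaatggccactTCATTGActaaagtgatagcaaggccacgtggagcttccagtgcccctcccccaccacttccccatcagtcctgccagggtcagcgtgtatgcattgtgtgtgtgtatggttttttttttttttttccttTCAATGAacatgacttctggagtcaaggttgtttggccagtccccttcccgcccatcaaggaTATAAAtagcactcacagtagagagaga
Both strands were searched for 6 motifs. AGGTCA is the half-site of many nuclear receptors. The letters TCAAAGG are the core of a direct repeat of it, and TCANTGA is the centre of an inverted repeat of the kind Nr1h4 binds. For Hnf4a the motif was CAAAGTCCA and for Nr5a2 it was TCAAGGNCA, which can hold the half-site within it. The inverted repeat centre can also share bases with a half-site. The remaining motif was the TATA box, TATAAA. Cyp8b1 held CAAAGTCCA, which begins 67 bases before the start and is present in 0.384% of 32851 windows of the same length, and TATAAA at 31 bases, present in 12.4%. Nr0b2 held TCANTGA at 220 and at 90 bases, present in 5.93% of windows, and TATAAA at 28 bases. Abcb11 held TCANTGA at 91 bases and AGGTCA, on the opposite strand, at 56 bases. The half-site was present in 14% of windows. At Slc10a1, not printed, one start had AGGTCA at 87 bases and the other TATAAA on the opposite strand at 128 bases. Cyp27a1 had none of these letters in its window. The direct repeat core and the Nr5a2 motif, present in 4.16% and 1.39% of all windows, were in none of those of the 5 genes. These are matches of letters and no binding was measured.

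Values are log2 signals after quantile normalization over the arrays of a tissue, with signals under the 5th percentile raised to it. Comparisons came from a limma fit to the 12 arrays of the tissue together, p-values were adjusted over the 16506 probes whose mean signal exceeded the median, and a probe was called at an adjusted p under 0.05 with a change of at least 1.6-fold. All 8 genes passed that brightness filter in liver. The median signal before normalization was 340 to 460 on the liver arrays and 976 to 2088 on the brain arrays. A typical probe had a residual SD of 0.52 on the log2 scale in liver and 0.27 in brain (median). On the first principal component, with 22.3% of the variance in liver and 49.2% in brain, the Acads+/+ HF brain arrays lay at −46.3 to −108 and the other brain arrays at 18.6 to 33.8. For the 6 liver LF samples one label field names the high-fat diet, while title, treatment field and column names give LF, which was used. The mean of the deleted gene was lower in Acads-/- mice, and in liver Acads had 8.19, 7.54 and 10.03 in Acads-/- HF mice, 7.96, 8.23 and 9.69 in Acads-/- LF mice, 9.75, 9.67 and 11.39 in Acads+/+ HF mice and 10.50, 10.46 and 8.76 in Acads+/+ LF mice. Its genotypes overlapped, with a log2 fold change of −1.48 over both diets (limma adjusted p = 0.936). In brain Acads fell by 2.39 on the log2 scale in Acads-/- mice on HF diet (limma adjusted p = 0.00248), and its log2 fold change on LF diet was −1.87, not called (adjusted p = 1.00).

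No bile acid gene was called in liver in any of the 7 comparisons made with limma. The members nearest to the threshold were those of the diet comparisons. Those with an unadjusted p under 0.05 (limma) and at least 1.6-fold between diets within a genotype follow. In Acads-/- livers on HF diet Cyp27a1 and Abcb11 lay above, and Nr0b2 below, every LF array of that genotype, with changes of 1.73, 2.42 and 0.534-fold. In Acads+/+ livers Cyp8b1 lay below every LF array, at 0.546-fold. Over both genotypes Cyp27a1 had the lowest p, with all 6 HF arrays above all 6 LF arrays. None of these passed the adjustment, and each is given as a value with its interval. In bulk liver fewer cells of a type and less RNA per cell cannot be told apart. The values are relative to the scaling of the arrays. With median scaling in place of quantiles the log2 fold changes of the 16326 probes tested both ways moved by a median of −0.19 for diet over both genotypes, −0.32 for diet in Acads+/+ mice, −0.084 for diet in Acads-/- mice, −0.17 for genotype on LF diet, 0.069 for genotype on HF diet and 0.23 for the difference between the diet effects. The 8 genes moved with them, all downward in the diet comparisons, by −0.33 to −0.12 over both genotypes, −0.47 to −0.15 in Acads+/+ mice and −0.21 to −0.094 in Acads-/- mice.

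**Figure D1:**
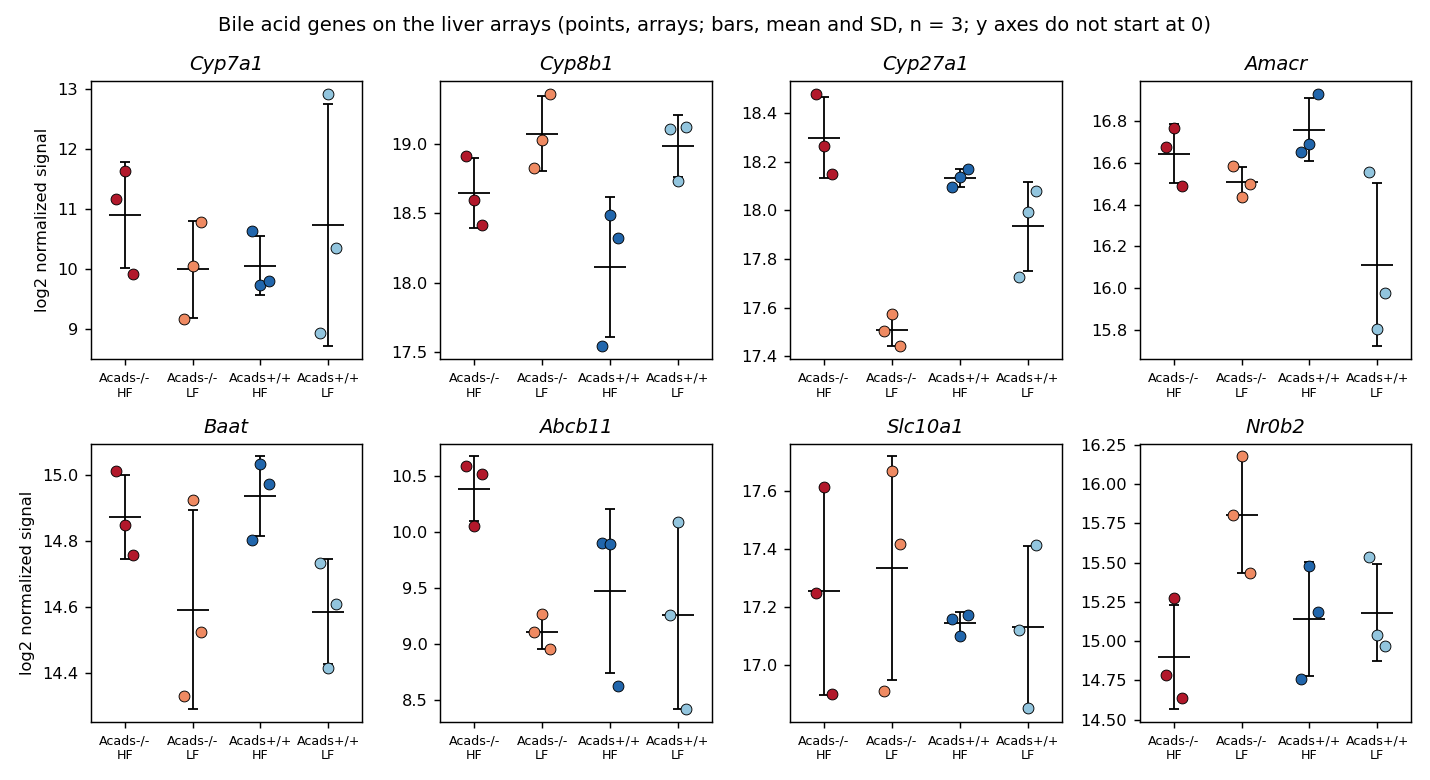
Log2 normalized signal (y axis, one scale per gene, not from 0) of the 8 genes on each liver array, in the order Acads-/- HF, Acads-/- LF, Acads+/+ HF and Acads+/+ LF, with points for arrays and bars for mean and SD of 3. The Acads-/- LF arrays of Cyp27a1 (17.44 to 17.58) lie apart from the other 9, while Cyp7a1 in Acads+/+ LF mice spreads from 8.93 to 12.93.

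Cyp27a1, the mitochondrial sterol hydroxylase, had its lowest values in Acads-/- LF livers. It had 18.48, 18.27 and 18.15 in Acads-/- HF livers and 17.50, 17.58 and 17.44 in Acads-/- LF livers. It had 18.10, 18.14 and 18.17 in Acads+/+ HF livers and 17.73, 17.99 and 18.08 in Acads+/+ LF livers. The 3 Acads-/- LF arrays were the lowest of the 12, and within each genotype the diets did not overlap. In order, the group means were 18.30, 18.13, 17.93 and 17.51 in Acads-/- HF, Acads+/+ HF, Acads+/+ LF and Acads-/- LF livers (SD 0.17, 0.037, 0.18 and 0.067, n = 3 each), and the first and second of these overlapped. Between diets the log2 fold change was 0.79 in Acads-/- mice (95% interval 0.40 to 1.18, limma adjusted p = 0.208) and 0.20 in Acads+/+ mice (−0.19 to 0.59, adjusted p = 0.723). The difference between these 2 diet effects was 0.59 (0.04 to 1.14, adjusted p = 0.890). Between genotypes it was −0.43 on LF diet (−0.82 to −0.04, adjusted p = 1.00) and 0.17 on HF diet (−0.22 to 0.55). Over both genotypes the diet difference was 0.50 (0.22 to 0.77, adjusted p = 0.135), below the 1.6-fold limit, and all 6 HF arrays lay above all 6 LF arrays. This separation of 6 from 6 quantile-normalized arrays was met by 1.66% of the probes tested. With median scaling the diet value of Cyp27a1 was 0.17 over both genotypes, 0.58 in Acads-/- mice and, with the sign turned, −0.24 in Acads+/+ mice.

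Cyp8b1, the hydroxylase that leads to cholic acid, was among the brightest probes of the liver, at the 98.6 percentile of the array or higher. It had 18.92, 18.60 and 18.42 in Acads-/- HF livers and 18.83, 19.03 and 19.37 in Acads-/- LF livers, which overlapped. It had 17.54, 18.49 and 18.32 in Acads+/+ HF livers and 19.11, 18.73 and 19.12 in Acads+/+ LF livers, which did not. The mean was lower on HF diet in both genotypes. The diet effect on the log2 scale was −0.43 in Acads-/- mice (−1.06 to 0.20, limma adjusted p = 0.725) and −0.87 in Acads+/+ mice (−1.50 to −0.25, adjusted p = 0.356), and their difference was 0.44 (−0.44 to 1.33, adjusted p = 0.913). Over both genotypes it was −0.65 (−1.10 to −0.21, adjusted p = 0.213). With median scaling this comparison gave −0.97 and passed (adjusted p = 0.0456), in a setting where the median of all probes tested was −0.23 and 123 probes were called lower and 11 higher on HF diet, against 58 lower and 20 higher with quantiles. By that scaling Cyp8b1 had −0.59 in Acads-/- and −1.34 in Acads+/+ mice. Between genotypes Cyp8b1 had 0.53 on HF diet (−0.10 to 1.16) and 0.09 on LF diet (−0.54 to 0.71), the second with its sign turned by median scaling (−0.12). With single arrays left out the diet value in Acads+/+ mice ran from −1.06 to −0.59. The value of −0.59 came without the Acads+/+ HF array at 17.54 and was a change smaller than the 1.6-fold limit. Without that same array the genotype value on HF diet was 0.24 and the difference between the diet effects 0.16. Without the Acads-/- LF array at 19.37 the diet value in Acads-/- mice was −0.29.

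Cyp7a1, the rate-limiting enzyme, was dim and variable. It had 11.17, 11.63 and 9.92 in Acads-/- HF livers, 9.16, 10.04 and 10.78 in Acads-/- LF livers, 10.62, 9.73 and 9.80 in Acads+/+ HF livers and 8.93, 12.93 and 10.34 in Acads+/+ LF livers. All groups overlapped, and the highest and the lowest of the 12 arrays were of the same group, Acads+/+ LF. HF over LF diet gave log2 fold changes of 0.91 in Acads-/- mice (−1.05 to 2.88, limma adjusted p = 0.833) and −0.68 in Acads+/+ mice (−2.64 to 1.28, adjusted p = 0.825). Between genotypes Cyp7a1 had 0.86 on HF diet (−1.11 to 2.82) and −0.74 on LF diet (−2.70 to 1.22). Without the array at 12.93 the diet value for Acads+/+ mice was 0.42 and the genotype value on LF diet 0.36, both of opposite sign. With other single arrays left out the diet value for Acads-/- mice ran from 0.50 to 1.41 and the genotype value on HF diet from 0.49 to 1.35. Intervals of this width do not exclude changes well beyond 1.6-fold in either direction. The dimmer probe of Cyp7a1 gave 0.83 in Acads-/- mice (−0.77 to 2.43) and 0.95 in Acads+/+ mice (−0.64 to 2.55), so the 2 probes differed in sign for the Acads+/+ mice. They also differed in sign between genotypes on HF diet, where the dimmer probe had −0.25 (−1.85 to 1.35). The difference between the diet effects was 1.59 by the kept probe and −0.12 by the dimmer one.

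Amacr and Baat, the peroxisomal enzymes of side-chain turning and conjugation, stood at the 92.9 percentile or higher on every liver array. Amacr had 16.67, 16.77 and 16.49 in Acads-/- HF livers and 16.59, 16.44 and 16.50 in Acads-/- LF livers. It had 16.65, 16.69 and 16.93 in Acads+/+ HF livers and 16.55, 15.81 and 15.98 in Acads+/+ LF livers, in which the diets did not overlap. On the log2 scale HF and LF diet differed by 0.64 in Acads+/+ mice (0.16 to 1.13, limma adjusted p = 0.383) and 0.14 in Acads-/- mice (−0.35 to 0.62), and their difference was −0.51 (−1.195 to 0.18). Over both genotypes Amacr had 0.39 (0.05 to 0.73, adjusted p = 0.314). Baat had 15.01, 14.85 and 14.76 in Acads-/- HF livers, 14.33, 14.92 and 14.52 in Acads-/- LF livers, 14.80, 15.03 and 14.97 in Acads+/+ HF livers and 14.73, 14.42 and 14.61 in Acads+/+ LF livers. The HF arrays of Acads+/+ mice were above their LF arrays. The log2 fold change of Baat between diets was 0.28 in Acads-/- mice (−0.17 to 0.73) and 0.35 in Acads+/+ mice (−0.10 to 0.80), with 0.32 over both (limma adjusted p = 0.378). Between genotypes Baat had −0.06 on HF diet (−0.51 to 0.39) and 0.01 on LF diet (−0.44 to 0.46), and Amacr had −0.11 (−0.60 to 0.37) and 0.39 (−0.09 to 0.88). With median scaling the diet values of Amacr were −0.02 in Acads-/- mice, with the sign turned, 0.26 in Acads+/+ mice and 0.12 over both. By the same scaling Baat had 0.14 in Acads-/- mice, −0.05 in Acads+/+ mice, also turned, and 0.05 over both.

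Abcb11, the canalicular bile salt export pump, was dim, at the 44.6 to 75.7 percentile of the liver arrays. Abcb11 had its highest mean in Acads-/- HF livers. It had 10.58, 10.06 and 10.52 in Acads-/- HF livers and 9.11, 9.27 and 8.96 in Acads-/- LF livers. It had 9.90, 9.90 and 8.63 in Acads+/+ HF livers and 9.26, 10.09 and 8.42 in Acads+/+ LF livers. The Acads-/- HF arrays lay above both the Acads-/- LF and the Acads+/+ HF arrays, but one of them, at 10.06, was just below the highest Acads+/+ LF array. The change on HF diet was, on the log2 scale, 1.27 in Acads-/- mice (0.29 to 2.26, limma adjusted p = 0.386) and 0.22 in Acads+/+ mice (−0.77 to 1.201), and their difference was 1.06 (−0.34 to 2.45, adjusted p = 0.901). Between genotypes it was 0.91 on HF diet (−0.07 to 1.89, adjusted p = 0.757) and −0.14 on LF diet (−1.13 to 0.84). Over both genotypes the diet difference was 0.74 (0.05 to 1.44, adjusted p = 0.344). The SD among the Acads+/+ arrays was 0.73 on HF and 0.83 on LF diet, against 0.29 on HF and 0.15 on LF diet in Acads-/- mice. Without the Acads+/+ HF array at 8.63 the genotype value on HF diet was 0.49 and the difference between the diet effects 0.63, and without the Acads+/+ LF array at 10.09 that difference was 0.64. With an offset of 500 in place of the floor the diet value in Acads-/- mice was 0.80.

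Slc10a1, the sodium-dependent carrier for uptake from blood, had group means between 17.13 and 17.33. It had 17.25, 17.61 and 16.90 in Acads-/- HF livers, 16.91, 17.67 and 17.42 in Acads-/- LF livers, 17.16, 17.10 and 17.17 in Acads+/+ HF livers and 17.12, 16.85 and 17.41 in Acads+/+ LF livers. Every pair of groups overlapped. HF minus LF diet came to, on the log2 scale, −0.08 in Acads-/- mice (−0.66 to 0.50) and 0.01 in Acads+/+ mice (−0.57 to 0.60), and between genotypes it was 0.11 on HF diet (−0.47 to 0.69) and 0.20 on LF diet (−0.38 to 0.79). These intervals include changes of up to about 1.6-fold or a little more. With median scaling the diet value of Slc10a1 was −0.27 in Acads-/- mice and −0.44 in Acads+/+ mice, the second with its sign turned.

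Nr0b2, the repressor of synthesis, had its highest mean in Acads-/- LF livers. It had 14.78, 15.27 and 14.64 in Acads-/- HF livers and 15.80, 16.17 and 15.43 in Acads-/- LF livers. It had 14.76, 15.48 and 15.18 in Acads+/+ HF livers and 15.53, 15.04 and 14.97 in Acads+/+ LF livers, which overlapped. The highest pair of the 12 arrays were of the Acads-/- LF group. The HF and LF means differed on the log2 scale by −0.90 in Acads-/- mice (−1.55 to −0.26, limma adjusted p = 0.348) and −0.04 in Acads+/+ mice (−0.68 to 0.60), and their difference was −0.86 (−1.77 to 0.05, adjusted p = 0.890). Between genotypes it was −0.24 on HF diet (−0.88 to 0.40) and 0.62 on LF diet (−0.02 to 1.27, adjusted p = 1.00). Over both genotypes the diet difference was −0.47 (−0.93 to −0.02, adjusted p = 0.359). With median scaling the diet values of Nr0b2 were −0.74 over both, −1.04 in Acads-/- mice and −0.44 in Acads+/+ mice.

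**Figure D2:**
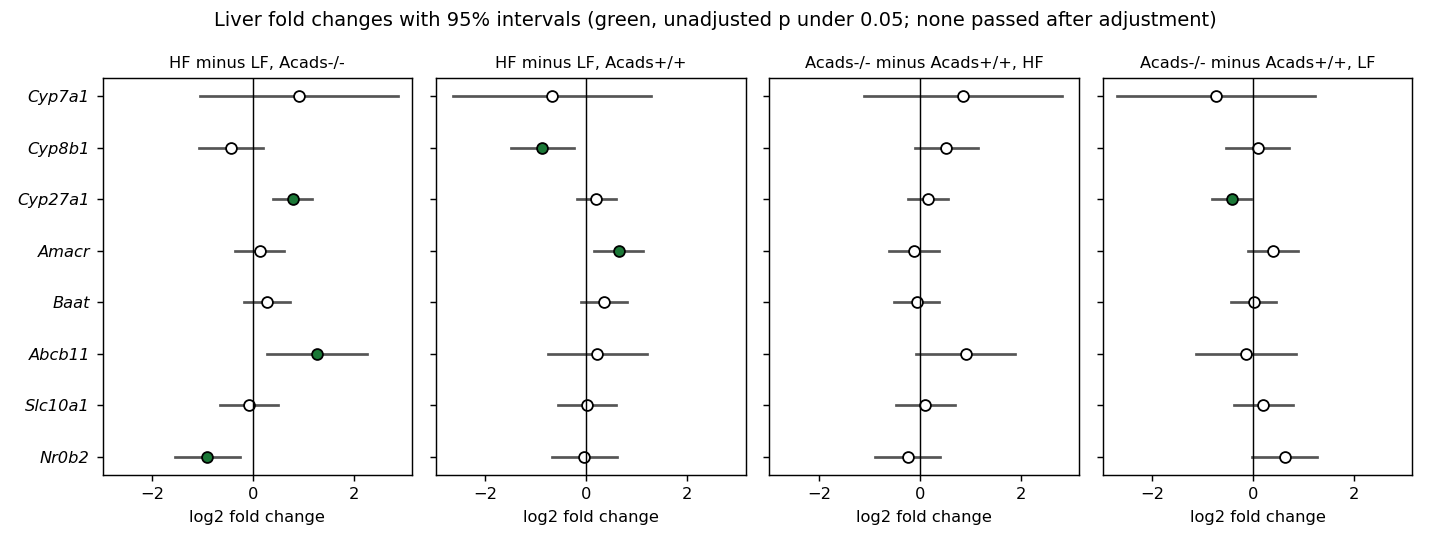
Log2 fold changes of the 8 genes in liver (x axis), HF minus LF in Acads-/- and in Acads+/+ mice and Acads-/- minus Acads+/+ on HF and on LF diet, with 95% intervals from limma. Green points have an unadjusted p under 0.05, which held for 3 genes between diets in Acads-/- mice (9.2% of all probes), 2 between diets in Acads+/+ mice (10.6%), 0 between genotypes on HF diet (6.77%) and 1 on LF diet (4.03%).

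The counts of members have to be read against those of all probes. Between diets in Acads-/- mice 0 of 8 genes were called against 0.109% of all probes, and in Acads+/+ mice 0 of 8 against 0% (limma, adjusted). Between genotypes 0 of 8 were called on HF diet, against 0% of probes, and 0 of 8 on LF diet, also against 0%. The difference between the diet effects called 0 of 8 genes and 0% of probes. Over both genotypes diet called 0 of 8 genes and 0.473% of probes, and over both diets genotype called 0 of 8 genes and 0.00606% of probes. The methods' t-test after adjustment called 0 genes in each of the 6 comparisons it could be run on.

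At an unadjusted p under 0.05 with the same fold, 3 of 8 genes passed between diets in Acads-/- mice (2 higher and 1 lower on HF diet), where 7.4% of probes did, and 1 of 8 in Acads+/+ mice, where 8.7% did. By that rule genotype passed 0 genes on HF diet against 5.67% of probes, and 0 on LF diet against 3.29%. The difference between the diet effects passed 0 genes against 5.14%, diet over both genotypes 1 gene against 8.04%, and genotype over both diets 0 genes against 2.81%. With no limit on the fold, limma's unadjusted p passed 5 of 8 genes for diet over both genotypes, where 13.3% of probes passed. These were Cyp27a1, Amacr and Abcb11 with higher and Cyp8b1 and Nr0b2 with lower means on HF diet. The count is of quantile-normalized values. Median scaling moved all 8 genes downward in this comparison, by −0.33 to −0.12, and the count was not taken with it. The methods' t-test, unadjusted and with the same fold, passed 3 genes between diets in Acads-/- mice, where 4.27% of probes passed. It passed 0 in the other comparisons, against 5.45% between diets in Acads+/+ mice, 6.65% for diet over both genotypes, 3% between genotypes on HF diet, 2.1% on LF diet and 1.89% for genotype over both diets. On quantile-normalized values groups did not overlap for 3 genes between diets in Acads-/- mice against 14.5% of probes, and for 4 in Acads+/+ mice (Cyp27a1, Amacr and Baat above, Cyp8b1 below) against 17.3%. They did not overlap for 1 gene between genotypes on HF diet (Abcb11) against 11.1%, and for 1 on LF diet (Cyp27a1) against 9.37%. For genotype over both diets this held for 0 genes, against 0.224% of probes. On the same values the median log2 fold change between diets over the 8 genes was 0.21 in Acads-/- mice and 0.11 in Acads+/+ mice. That of all probes tested was −0.026 and −0.0022.

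**Figure D3:**
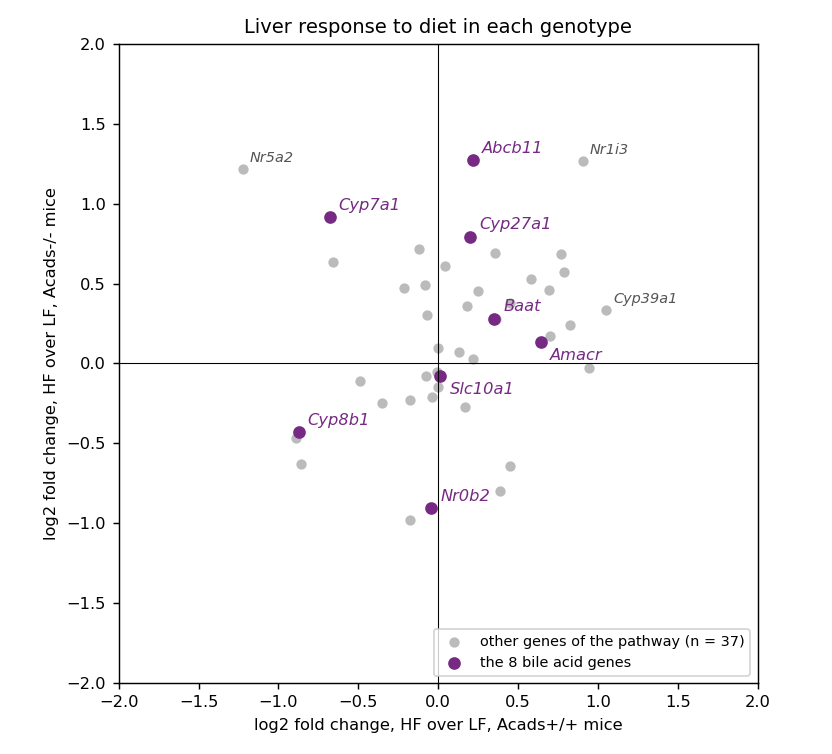
Log2 fold change in liver on HF over LF diet in Acads-/- mice (y axis) and in Acads+/+ mice (x axis), with 1 point a gene for the 8 bile acid genes (purple) and 37 other genes of the pathway (grey). Cyp8b1 lies below 0 on both axes, Cyp27a1, Abcb11, Amacr and Baat above 0 on both with quantile normalization (after median scaling Amacr was below 0 on the y axis and Cyp27a1 and Baat on the x axis), and Nr5a2 at 1.21 on the y axis and −1.23 on the x axis.

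A list of 51 further genes of bile acid synthesis, transport and control had 44 genes with a probe, of which 37 passed the brightness filter in liver. None of them was called in liver by limma in any of the 7 comparisons. At an unadjusted p with any fold 6 of the 37 were higher and 0 lower on HF diet in Acads-/- mice (9.2% of all probes). In Acads+/+ mice 7 were higher and 2 lower (10.6%), and over both genotypes 11 were higher and 1 lower (13.3%). Of all 16506 probes, 744 were higher and 774 lower by this rule in Acads-/- mice. In Acads+/+ mice 691 were higher and 1063 lower, and over both genotypes 962 and 1235. Between genotypes 0 passed on HF diet (6.77%) and 3, all lower in Acads-/- mice, on LF diet (4.03%). The difference between the diet effects passed for 1 (Nr5a2, 5.46% of all probes) and genotype over both diets for 1 (Slc10a2, 4.78%). The methods' t-test, unadjusted and at 1.6-fold or more, passed 3 between diets in Acads-/- mice, 5 in Acads+/+ mice, 1 between genotypes on HF diet and 2 on LF diet, against the shares of all probes given above. The median log2 fold change of the 37 was 0.24 between diets in Acads-/- mice and 0.13 in Acads+/+ mice, against −0.026 and −0.0022 over all probes. These counts and medians are of quantile-normalized values and were not taken with median scaling. That scaling moved the diet values of all probes by a median of −0.084 in Acads-/- mice, −0.32 in Acads+/+ mice and −0.19 over both genotypes.

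Among the regulators, Nr1i3 encodes the constitutive androstane receptor, which controls detoxification of bile acids and drugs. It had 16.13, 16.31 and 15.28 in Acads-/- HF livers and 15.004, 14.74 and 14.18 in Acads-/- LF livers. It had 15.59, 15.71 and 15.87 in Acads+/+ HF livers and 14.86, 14.50 and 15.09 in Acads+/+ LF livers, so that HF arrays were above LF arrays throughout. The log2 fold change of Nr1i3 was 1.27 in Acads-/- mice (0.57 to 1.96, limma adjusted p = 0.240), 0.90 in Acads+/+ mice (0.21 to 1.601, adjusted p = 0.387) and 1.09 over both (0.59 to 1.58, adjusted p = 0.0768). Over both genotypes it was called among the 25% brightest probes (adjusted p = 0.0289), with an offset of 500 in place of the floor (adjusted p = 0.0405) and without 1 Acads-/- HF array (1.24, adjusted p = 0.0450). Under the other alternatives with an adjusted p, median scaling among them, Nr1i3 was not called. Mafg, a small Maf repressor of bile acid synthesis genes, had 0.55 over both genotypes (0.19 to 0.92, adjusted p = 0.204). Nr1h4, the bile acid receptor itself, had 0.70 in Acads+/+ mice (0.21 to 1.19, adjusted p = 0.344) and 0.17 in Acads-/- mice (−0.31 to 0.66). Ppara, a fatty acid receptor, had a difference between the diet effects of 0.69 (−0.08 to 1.45, adjusted p = 0.890), and 0.45 without the Acads-/- LF array numbered 17866. With median scaling the diet values in Acads+/+ mice were 0.51 for Nr1i3 and 0.31 for Nr1h4.

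Nr5a2 encodes the receptor LRH-1, an activator of Cyp7a1 and Cyp8b1 on which the Nr0b2 protein acts. It had 10.22, 10.38 and 9.77 in Acads-/- HF livers and 8.89, 8.62 and 9.23 in Acads-/- LF livers, which did not overlap. It had 8.91, 9.37 and 9.98 in Acads+/+ HF livers and 11.60, 9.95 and 10.37 in Acads+/+ LF livers, which overlapped by 1 array. The log2 fold change of Nr5a2 was 1.21 in Acads-/- mice (0.27 to 2.16, limma adjusted p = 0.387) and −1.23 in Acads+/+ mice (−2.17 to −0.28, adjusted p = 0.388). Without the Acads+/+ LF array at 11.60 the value in Acads+/+ mice was −0.74 (adjusted p = 0.465). The difference between the diet effects was 2.44 (1.10 to 3.78, adjusted p = 0.868), and on LF diet the genotypes differed by −1.73 (−2.68 to −0.78, adjusted p = 1.00).

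Among enzymes and carriers, Cyp39a1, an oxysterol hydroxylase, had 1.05 between diets in Acads+/+ mice (0.40 to 1.70, limma adjusted p = 0.296) and 0.33 in Acads-/- mice (−0.32 to 0.98). Slc27a2, an acyl-CoA synthetase for very long chains and for bile acid intermediates, had 0.61 between diets in Acads-/- mice (0.18 to 1.05, adjusted p = 0.348) and 0.04 in Acads+/+ mice (−0.39 to 0.48). On LF diet Slc27a2 differed by −0.45 between genotypes (−0.89 to −0.02), a pattern of signs like that of Cyp27a1. Abcc2, a canalicular pump for conjugates, had 0.83 in Acads+/+ mice (0.27 to 1.38, adjusted p = 0.324) and 0.24 in Acads-/- mice (−0.31 to 0.80), and with median scaling 0.42 in Acads+/+ mice. Slc10a2, the sodium-dependent carrier best known from ileum and bile duct, differed between genotypes by −0.83 over both diets (−1.33 to −0.32, adjusted p = 0.789), with −1.04 on LF diet (−1.76 to −0.33). Slco1a4, a basolateral organic anion carrier, and Cyp2c70, which makes muricholic acids in the mouse, differed between genotypes by −0.66 (−1.40 to 0.09) and −0.35 (−0.77 to 0.06) over both diets, Slco1a4 by −0.36 without the Acads-/- LF array numbered 17981. Akr1c6, a steroid dehydrogenase of the aldo-keto reductase family, differed by −0.71 on HF diet (−1.53 to 0.10), and by −0.35 without the Acads-/- HF array numbered 17873.

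The tissues were told apart by 4 neuron genes, which summed to 10.7 to 12.1 on the log2 scale in liver and 19.9 to 20.3 in brain. Alb, serum albumin, had group means of 19.36 to 19.69 in liver, and single brain arrays had 9.59 to 16.27. The summed signal of the 5 of 7 hepatocyte genes with a probe did not tell them apart, at 20.8 to 21.5 in liver and 20.1 to 21.1 in brain, where Ttr, which the choroid plexus also makes, had most of it. No gene of the marker lists for hepatocytes, cholangiocytes, Kupffer cells, stellate cells, endothelium, blood or enterocytes was called in liver by limma.

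Of the 5 hepatocyte genes 4 had a higher mean on HF diet in Acads-/- mice, as Cyp27a1 and Abcb11 did. In limma 2 of these had an unadjusted p under 0.05, where 9.2% of all probes did. Tat, tyrosine aminotransferase, had 13.09, 11.20 and 12.05 in Acads-/- HF livers and 9.08, 11.51 and 9.77 in Acads-/- LF livers (2.00, limma adjusted p = 0.357). Apoa1, the main protein of high-density lipoprotein, had 17.72, 16.58 and 17.96 in Acads-/- HF livers and 13.27, 16.41 and 14.82 in Acads-/- LF livers (2.58, adjusted p = 0.524). Alb had 19.69 ± 0.34 in Acads-/- HF and 19.48 ± 0.90 in Acads-/- LF livers (SD, n = 3 each), a difference of 0.21, and Fgb, a fibrinogen chain, had 0.04. Ttr went the other way, with −0.32 (adjusted p = 0.692) and all HF arrays below all LF arrays of that genotype.

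Among the other cell types the summed signal of 4 endothelial genes was 15.27 to 15.33 in Acads-/- HF livers and 14.98 to 15.26 in Acads-/- LF livers, which did not overlap. That of 6 Kupffer cell genes was 17.13 to 17.67 in Acads-/- HF livers and 16.62 to 17.17 in Acads-/- LF livers, which overlapped, and 16.64 to 17.07 in Acads+/+ HF livers, which lay below the Acads-/- HF arrays as they did for Abcb11. Between genotypes on HF diet 5 of the 6 Kupffer cell genes had a positive log2 fold change, with a median of 0.53. Cd5l among them had 1.09 (limma adjusted p = 0.696). Of the 3 endothelial genes tested only 1 was positive, Lyve1 with 1.14 (limma adjusted p = 0.600), and their median was −0.016. A pair of blood genes summed to 18.45 to 18.78 in Acads-/- HF livers and 18.90 to 19.33 in Acads+/+ HF livers, which did not overlap. The sum of 5 cholangiocyte genes was 11.3 to 11.7 in Acads-/- HF livers and 11.1 to 11.6 in Acads-/- LF livers, and that of 4 stellate cell genes 17.61 to 18.53 in Acads-/- HF livers and 17.59 to 18.12 in Acads-/- LF livers. The part of these values in the results of the bile acid genes was not tested.

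Across the 12 liver arrays, the genes whose levels ran most like those of each member were taken by Pearson's r over 8446 candidate probes (8445 for Cyp7a1). The arrays share their normalization and their groups, and the values describe these arrays only. Cyp27a1 ran with Aadat (r = 0.938), an aminotransferase of the lysine and tryptophan pathways, then Fbxo31 (0.915) and Gpr146 (0.912). Cyp8b1 ran with Pdzk1ip1 (0.903), Shroom1 (0.887) and S100a10 (0.875), and Baat with Nfu1 (0.920), Stx4a (0.907) and Cyp2c54 (0.878). Amacr ran with Wdr4 (0.881), Jtb (0.871) and Psmd10 (0.829), and Abcb11 with Dll1 (0.851), Trappc12 (0.838) and Vav1 (0.837). Nr0b2 ran with Cycs (0.856), which encodes cytochrome c, Ppp1r2 (0.846) and Lrrc15 (0.808). Cyp7a1 ran with Mtch1 (0.858), Parp12 (0.844) and Olfr273 (0.828), and Slc10a1 with Mfap3 (0.794), Cd72 (0.789) and Prxl2c (0.778). After removal of the group means r was 0.941 for Cyp27a1 and Aadat but 0.601 for Fbxo31 and 0.586 for Gpr146.

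Brain served as the contrast, since the classic route is a liver function. The tissues were normalized apart, so only the rank of a probe among all probes of its own array is set side by side. Cyp8b1 stood at the 98.6 to 99.8 percentile in liver and the 13.2 to 58.3 in brain. Slc10a1 stood at 97.9 to 98.7 in liver and 20.7 to 54.6 in brain, Baat at 92.9 to 94.8 in liver and 2.5 to 41.8 in brain, and Nr0b2 at 93.8 to 96.9 in liver and 37.4 to 59.2 in brain. Cyp27a1, whose enzyme is made in many tissues, stood at 98.5 to 99.4 in liver and 76.4 to 81.7 in brain, and Amacr at 96.3 to 97.9 in liver and 69.1 to 77.6 in brain. Cyp7a1 and Abcb11 were dimmer in liver, at 56.9 to 87.8 and 44.6 to 75.7, and reached 2.5 to 50.9 and 13.7 to 49.2 in brain. The 2 ranges of Abcb11 thus overlapped, unlike those of the other 7 genes by the probes kept. For Cyp7a1 the probe had been chosen by its liver signal. The dimmer probe of this gene stood at 6.9 to 74.5 in liver and 7.0 to 35.9 in brain, which overlapped.

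**Figure D4:**
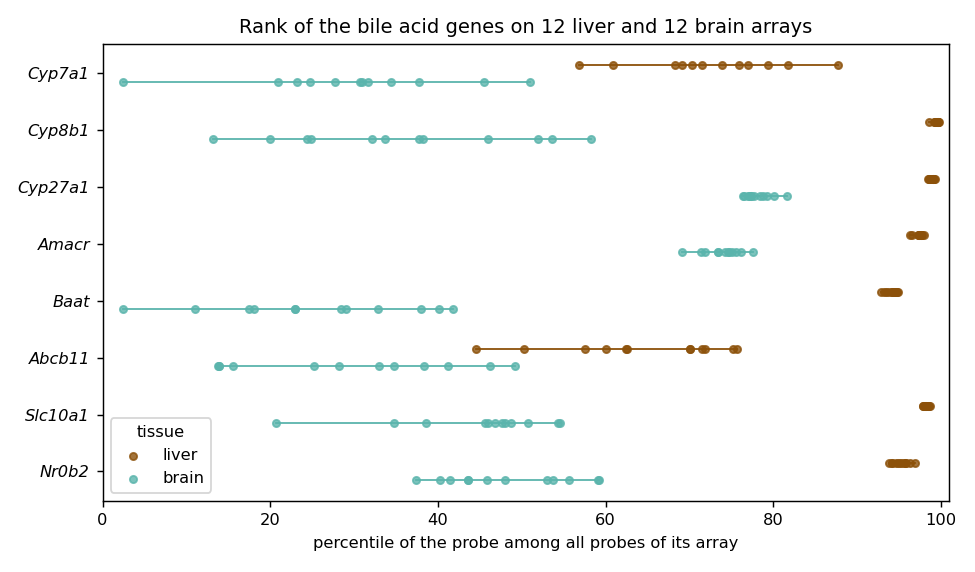
Percentile of each of the 8 genes among all probes of its array (x axis), with 1 point an array and a line from the lowest to the highest, for 12 liver (brown) and 12 brain (teal) arrays. For these probes, each the brightest of its gene in liver, liver and brain points are apart for every gene except Abcb11. The dimmer probe of Cyp7a1, not drawn, overlapped between the tissues.

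In brain only Cyp27a1, Amacr and Nr0b2 passed the brightness filter, and 0 of the 3 were called by limma in any comparison. The share of all probes called in brain was 34.9% between genotypes on HF diet, 0.0182% on LF diet, 0% between diets in Acads-/- mice and 32.9% in Acads+/+ mice. It was 22.7% for the difference between the diet effects, 9.34% for diet over both genotypes and 9.91% for genotype over both diets. The 5 comparisons with the higher shares are those that contain the Acads+/+ HF brain arrays, which stand apart on the first principal component, and the part of those arrays in the values below was not tested. At an unadjusted p with any fold, 1 of the 3 genes passed between genotypes on HF diet (Amacr, 0.49, adjusted p = 0.0615), where 54.7% of all probes did, and 1 between diets in Acads+/+ mice (Cyp27a1, 0.37, adjusted p = 0.0690), where 53.4% did. The methods' t-test, unadjusted and with the fold limit, passed 0 of the 3 in each comparison, against 28.5% of probes between genotypes on HF diet, 1.09% on LF diet, 1.79% between diets in Acads-/- mice, 28.9% in Acads+/+ mice, 6.13% for diet over both genotypes and 5.53% for genotype over both diets. Nr0b2 had 0.68 on HF and 0.71 on LF diet between genotypes (adjusted p = 0.238 and 1.00). Over both diets Nr0b2 had 0.70 (adjusted p = 0.125), which passed with array weights (0.92, adjusted p = 0.0288) and without the Acads-/- LF array numbered 17982 (0.93, adjusted p = 0.0425). Those settings called 2075 and 1552 of the 16506 probes. In the fit over all probes Cyp8b1, with 11.28, 9.49 and 10.66 in Acads+/+ HF brains and 8.77, 8.58 and 8.30 in Acads+/+ LF brains, had 1.93 (adjusted p = 0.0219), in a comparison that called 15.1% of all 33012 probes. Cyp8b1 in Acads-/- brains had 0.90 between diets (adjusted p = 0.664), and the difference between the diet effects was −1.02 (adjusted p = 0.404).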

How the data were processed

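Signal intensities were deposited by the authors as assay signals extracted from the array images, not normalized between arrays. The log2 values deposited by the authors are quantile-normalized within each tissue, and all 12 liver arrays matched the normalized intensities within their group. The columns of signal over noise and of flags were left out. Intensities of each tissue were quantile-normalized, with a floor at the 5th percentile (142 in liver and 235 in brain) before log2. Of 33012 probes the 16506 with the higher mean signal entered a limma 3.58.1 fit (R 4.3.3) of 4 group means, with Benjamini-Hochberg adjustment. Probes below the filter were taken from the same fit over all probes. The steps were tested on simulated data. Figures were drawn with matplotlib 3.10.9 in Python 3.11.15. Gene names came from GEO's platform annotation, which gives 14411 probes 1 symbol and 247 several. Within a tissue the replicates are separate mice. The numbers given to arrays here are those in the column names, and no label explains them. Most of them head a column in both tissues, so liver and brain cannot be taken as separate sets of mice.

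The text names the 8 members, the genes of the wider list that were called in a liver comparison or, with none called, the 3 with the lowest p in it, the 3 probes most like each member, Acads and tissue markers. Members and lists were chosen with earlier results of these data known. Alternatives were median scaling, an offset of 500, no filter, the 25% brightest probes, the authors' log2 values, a mean over probes, only the groups compared, array weights, the methods' t-test, unadjusted p, the replicate block and each array left out. The pairing of replicate numbers was checked by the correlation of deviations from group means.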

Additional observations from a re-analysis of the deposited data

How the results depend on the processing

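Of 1001 liver fold changes of the 8 genes recomputed under alternatives with an adjusted p, 2 were called. Between diets in Acads-/- mice 1 gene instead of 0 was called among the 25% brightest probes (Cyp27a1, 0.79, adjusted p = 0.0383), where fewer probes were adjusted over. For diet over both genotypes 1 gene was called after median scaling (Cyp8b1, −0.97, adjusted p = 0.0456). That setting moved the median of all probes by −0.19 and all 8 members downward, by −0.33 to −0.12, and called 123 probes lower and 11 higher on HF diet. With unadjusted p, limma called 3 genes between diets in Acads-/- mice (7.4% of all probes), 1 in Acads+/+ mice (8.7%) and 1 over both genotypes (8.04%). The methods' t-test called 3 in Acads-/- mice (4.27%). In brain 1 gene was called between diets in Acads+/+ mice with no filter (Cyp8b1), in a fit that called 15.1% of all probes. For genotype over both diets 1 was called with array weights (Nr0b2), in a fit that called 2075 of 16506 probes. With an array left out 0 to 1 was called, the 1 being Nr0b2 without the Acads-/- LF array numbered 17982, where 1552 probes were called. In liver every array left out kept each count of members at 0. Of all 1105 recomputed liver fold changes, unadjusted settings included, 54 changed sign, and all of these were below the call threshold before and after.

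Of the 37 other pathway genes, 0 were called in liver, and 1, Nr1i3, was called for diet over both genotypes with the offset of 500 and among the 25% brightest probes. With an array left out 0 to 1 were, the 1 being Nr1i3 without the Acads-/- HF array numbered 17973. With unadjusted p limma called 2 for genotype on LF diet (3.29% of all probes), 3 for diet in Acads-/- mice (7.4%) and 7 in Acads+/+ mice (8.7%). It called 1 for the difference between the diet effects (5.14%), 4 for diet over both genotypes (8.04%) and 1 for genotype over both diets (2.81%). The methods' t-test, unadjusted, called 1 for genotype on HF diet (3% of all probes) and 2 on LF diet (2.1%). It called 3 and 5 for diet in Acads-/- and Acads+/+ mice (4.27% and 5.45%). For diet over both genotypes it called 3 (6.65%) and for genotype over both diets 1 (1.89%).

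In the fit with a replicate block, for which the deposited log2 values served, the members called stayed at 0 in all 14 comparisons. The replicate numbers were not taken as a pairing. Arrays with the same replicate number deviated with r of −0.298 to 0.286 in liver and −0.178 to 0.216 in brain. In liver 3 of 12 arrays correlated best with their own replicate number, and in brain 7 of 12 did. Over all probes, 18 were called between diets in Acads-/- livers and 0 to 50 under alternatives with an adjusted p (0 to 3 with an array left out), 0 in Acads+/+ livers and 0 to 8, and 78 for diet over both genotypes and 16 to 134. Other liver comparisons called 0 or 1 and at most 3. In brain, 5758 were called for genotype on HF diet and 69 to 6912 under alternatives, and 5426 for diet in Acads+/+ mice and 1373 to 6805. For the other brain comparisons these ranges were 1862 to 5941 around 3752 for the difference between the diet effects, 0 to 2336 around 1542 for diet, 4 to 2375 around 1636 for genotype, 1 to 6 around 3 for genotype on LF diet and 0 to 326 around 0 for diet in Acads-/- mice. With 3 arrays a group, the liver intervals of Cyp7a1 and Abcb11 are wide. Between diets in Acads-/- mice their standard errors were 0.88 and 0.44, against 0.18 for Cyp27a1. The residual SD of 0.52 is the median over all probes and not that of these genes. The deposited signal over noise was not used to limit the probes.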
